A study of Mus musculus with 24 samples.

Results

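The smooth muscle contractile genes described here are the 10 genes Acta2, Actg2, Tagln, Cnn1, Myh11, Myl9, Tpm1, Tpm2, Des and Lmod1, out of 22282 genes in the RNA sequencing tables. They were chosen by name, and all 10 were measured in each of 24 libraries from mice of C57BL/6 background, 3 libraries for each of 8 groups. The pregnant females that gave amniotic cells were wild type or tdTomato reporters, and the paper does not say which gave each library. MACs were cells of the amniotic fluid of embryos between E11.5 and E13.5, and Akt-MACs were MACs given a lentivirus for a constitutively active, myristoylated Akt. RACVECs were MACs given lentiviruses for the Ets factors Etv2, Erg and Fli1. Akt-RACVECs carried the same 3 factors and the active Akt, and Sox17-RACVECs carried the 3 factors and mouse Sox17. Akt-LECs and Akt-liver ECs were lung and liver endothelial cells (ECs) kept in culture with the active Akt, and LSECs were liver ECs sorted straight from the organ with no virus. The groups from amniotic fluid were mixed cultures of cells from embryos of both sexes and not clones. Conversion to RACVECs also moved the cells from an amniocyte medium to an EC medium with an inhibitor of the Tgf-beta receptor, so that the Ets factors and the medium cannot be told apart in RACVECs against MACs. The cultured ECs were bead-isolated and then sorted on endothelial surface proteins after transduction.

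Smooth muscle cells contract when myosin filaments pull on thin filaments of actin and tropomyosin. The pull starts when the regulatory light chain of myosin is phosphorylated, and calponin and transgelin bind the thin filament. Most genes of this apparatus are switched on by serum response factor, which binds DNA elements called CArG boxes together with myocardin or the related factors Mrtfa and Mrtfb, and Tgf-beta is a well known inducer of the programme. The genes mark vascular smooth muscle, and part of them is also found in pericytes, myofibroblasts and cultured mesenchymal cells, whereas mature endothelium has little of most of them.

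Values are given as FPKM, fragments per kilobase of transcript, here scaled by the upper quartile of the library. Such values allow levels of different genes to be set side by side. Numbers of reads were not used here, so that the depth behind a value is unknown, and a gene at 0 is said to be listed at 0. SDs are those between the 3 libraries of a group. The SEs and p-values of limma rest instead on a spread pooled over all 8 groups. Group differences are log2 fold changes on the scale of log2(FPKM + 1), which understates the change of low genes, and a gene counted as called where its log2 fold change passed 1 or -1 with an adjusted p from limma under 0.05. The study's methods describe a replicate of MACs as a separately isolated culture. For the sorted and cultured ECs no such definition was found, and p-values there rest on that pooled spread between libraries.

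The libraries did not all follow their labels, and this touches the contractile genes. In the library labelled Sox17-RACVEC 2, Etv2 was listed at 0, whereas it was between 127 and 860 FPKM in the other 8 libraries with Ets factors, and this library correlated best with Akt-RACVEC 3 (Pearson r of 0.970 across genes). Erg, another transduced factor, was 387 FPKM in that library and 395 to 1002 in Akt-RACVECs, against 4.49 and 0 in Sox17-RACVEC 1 and 3 and 0.90 to 13.8 in RACVECs. Sox17 itself was 5.09, 40.1 and 200.1 in Sox17-RACVECs, 0 in RACVECs and 12.0 to 83.5 in Akt-RACVECs, so that its level in Sox17-RACVEC 1 was below that of cells not given it. Akt-LEC 1 and Akt-liver EC 1 were nearest to each other (r of 0.949). A nearest library in another group was common, at 13 of 24 libraries, but these 2 also held striated muscle and macrophage genes. The summed FPKM of 18 striated muscle genes was 2158 in Akt-liver EC 1 and 137 in Akt-LEC 1, against 28.4 to 86.3 in the other cultured ECs, and that of 7 macrophage genes was 1100 and 1598, against 0 to 18.6. In converted cells the striated muscle sum reached 293.3, in Akt-RACVECs, and the macrophage sum 916.5, in Sox17-RACVECs. Akt-MAC 2 and Akt-MAC 3 had macrophage sums of 9683 and 30790, against 868 in Akt-MAC 1 and 0.79 to 14.7 in MACs. Contrasts with these libraries are given with and without them.

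The 2 smooth muscle actins differed widely in level. Acta2 (NM_007392), which encodes alpha smooth muscle actin, lies on the minus strand at chr19:34315580-34329826 (NCBIM37, GENCODE M1). Its FPKM was 610.3, 1246 and 722 in MACs, 742, 615 and 3593 in Akt-MACs, and 1057, 132 and 197 in RACVECs. In Akt-RACVECs it was 110.1, 2.22 and 0.27, and in Sox17-RACVECs it was 430, 0.27 and 359, the 0.27 belonging to the library labelled Sox17-RACVEC 2. Every library of MACs and Akt-MACs was thus above every library of Akt-RACVECs, whereas RACVEC 1 lay among the MACs and RACVEC 2 and 3 below them. In the endothelial groups Acta2 was 810.2, 4.97 and 52.7 in lung ECs with Akt, 683, 13.8 and 8.91 in liver ECs with Akt, and 9.16, 3.54 and 42.1 in LSECs. The cultured ECs therefore split within their own groups, with Akt-LEC 1 and Akt-liver EC 1 within the range of MACs. Actg2, which encodes gamma smooth muscle actin and lies at chr6:83462899-83486259, reached at most 58.7 FPKM, in Akt-LEC 1. It was 31.7, 11.6 and 21.0 in MACs, 11.1, 0 and 4.77 in RACVECs, and was listed at 0 in all 3 Sox17-RACVECs and in 9 of the 24 libraries in all.

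Tagln (NM_011526, chr9:45737711-45744141, minus strand) encodes transgelin, an actin-binding protein of the calponin family. Its FPKM was 556, 1178 and 810.3 in MACs, 1276, 729 and 2501 in Akt-MACs, and 409, 82.4 and 397 in RACVECs. It was 168, 6.04 and 5.46 in Akt-RACVECs and 490, 6.65 and 1690.0 in Sox17-RACVECs, of which the 6.65 was in the library labelled Sox17-RACVEC 2. All RACVECs and Akt-RACVECs were below all MACs and Akt-MACs, and Sox17-RACVEC 3 was above every library but Akt-MAC 3. In Akt-LECs Tagln was 507, 10.5 and 34.3, in Akt-liver ECs 484, 51.5 and 36.5, and in LSECs 18.6, 16.4 and 43.7. Cnn1, at chr9:21903725-21914074, encodes calponin, which holds back the myosin motor on the thin filament. Its levels were 8.07, 9.32 and 16.0 in MACs and 37.0, 14.2 and 95.4 in Akt-MACs, against 6.37, 0 and 6.02 in RACVECs and 4.52, 0 and 0 in Akt-RACVECs. It was listed at 0 in 10 of the 24 libraries, and the highest value outside Akt-MACs was 21.1, in Akt-LEC 1.

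Of the myosin genes, Myl9 was abundant in the amniotic cells and Myh11 was low in all groups. Myl9 (NM_172118, chr2:156601156-156607394) encodes the regulatory light chain whose phosphorylation starts contraction. It was 283, 873 and 347 FPKM in MACs, 461, 253 and 412 in Akt-MACs, and 339, 14.6 and 58.6 in RACVECs. In Akt-RACVECs it was 38.7, 0 and 0, and in Sox17-RACVECs 141, 0 and 117, the library labelled Sox17-RACVEC 2 being the one at 0. In LSECs Myl9 was 35.5, 31.9 and 37.9, and these values lay above replicates 2 and 3 of both cultured EC groups, which were between 2.88 and 14.9. Myh11 (chr16:14194620-14291501) encodes the smooth muscle myosin heavy chain, the marker most restricted to mature smooth muscle. It was 0.73, 2.18 and 1.5 in MACs, 2.84, 2.12 and 6.64 in Akt-MACs, 0.49, 0.15 and 0.51 in RACVECs, 0.54, 0.69 and 0.08 in Akt-RACVECs and 0.46, 0.20 and 0.26 in Sox17-RACVECs. The highest values were 12.3 in Akt-LEC 1 and 6.64 in Akt-MAC 3, and 9 of 24 libraries reached an FPKM of 1. The defining heavy chain of contractile smooth muscle was therefore near 0 in the RACVECs, in which Acta2 was at least 132 FPKM.

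**Figure D1:**
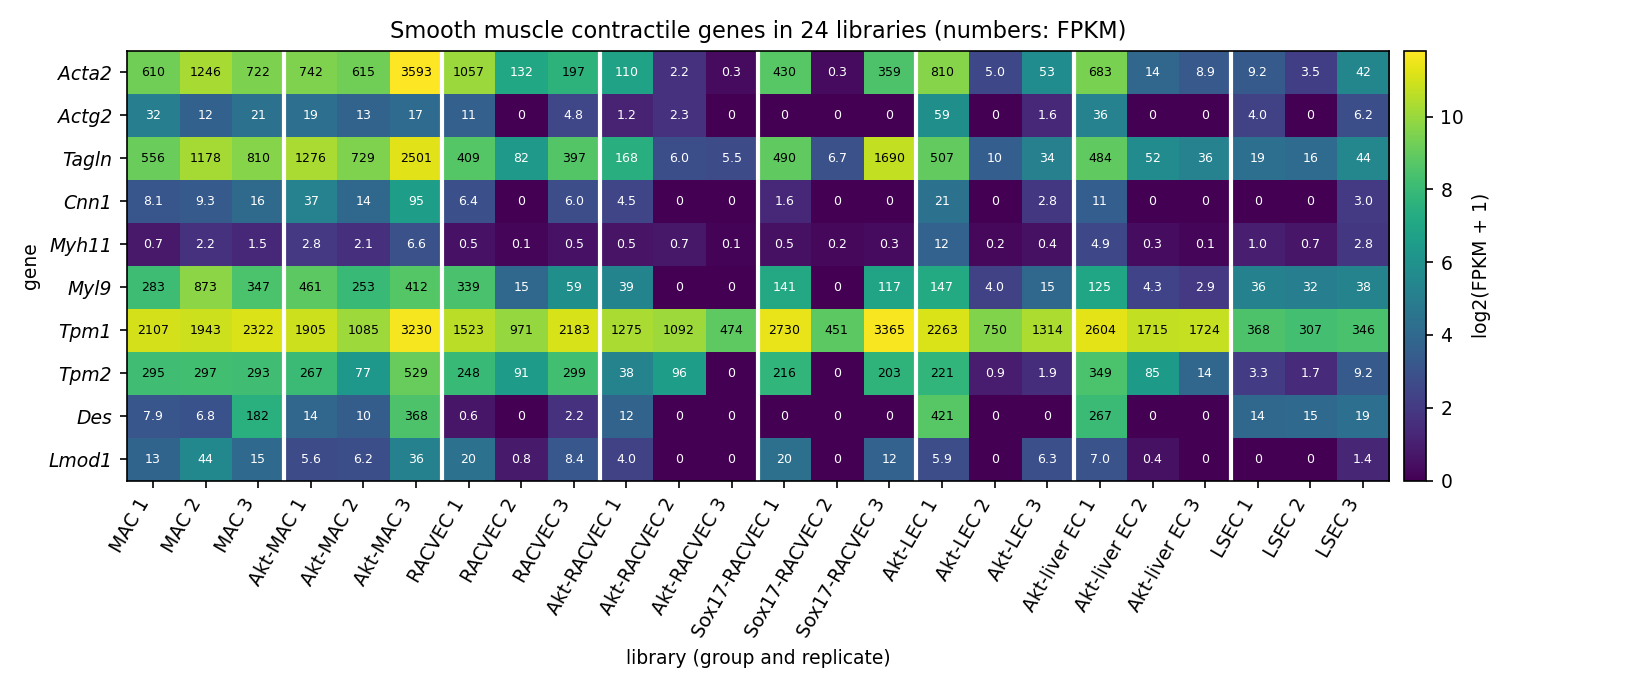
FPKM of the 10 contractile genes (rows) in the 24 libraries (columns, by group and replicate); the colour gives log2(FPKM + 1) and the printed number the FPKM. Libraries of the same group differ widely in Sox17-RACVECs, Akt-RACVECs, Akt-LECs and Akt-liver ECs, where the SD of log2(FPKM + 1) of Acta2 is 4.78, 3.40, 3.55 and 3.37.

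The tropomyosins, which lie along the actin filament, behaved differently from each other. Tpm1 (chr9:66870397-66897213) was the most abundant member on average and the only 1 never under 300 FPKM. It was 2107, 1943 and 2322 in MACs, 1523, 971 and 2183 in RACVECs, 1275, 1092 and 474 in Akt-RACVECs and 368, 307 and 346 in LSECs. The libraries of LSECs were all below those of the other groups, and the highest value, 3365, was in Sox17-RACVEC 3. Tpm2 (chr4:43527583-43536637) was 295, 297 and 293 in MACs, the tightest values of any member in that group. It was 248, 91.4 and 299 in RACVECs, 38.4, 95.8 and 0 in Akt-RACVECs, 216, 0 and 203 in Sox17-RACVECs, and between 1.66 and 9.17 in LSECs. Des (chr1:75356904-75365154) encodes desmin, the intermediate filament of muscle and of hepatic stellate cells, and was the member that varied most within groups. It was 7.94, 6.79 and 182 in MACs, 14.1, 10.1 and 368 in Akt-MACs, 0.64, 0 and 2.24 in RACVECs, and listed at 0 in all Sox17-RACVECs. It was 421, 0 and 0 in Akt-LECs and 267, 0 and 0 in their liver counterparts, so that Akt-LEC 1 and Akt-liver EC 1 held all of the desmin signal of cultured ECs. In LSECs it was 14.2, 15.3 and 18.7, beside 52.7 to 59.0 for Lrat, a marker of stellate cells that was at most 7.10 in any other library. Their part in the Des level was not tested. Lmod1 (chr1:137221384-137264642), which encodes leiomodin, a nucleator of actin filaments in smooth muscle, was 13.0, 44.2 and 15.4 in MACs, 20.3, 0.82 and 8.38 in RACVECs, 4, 0 and 0 in Akt-RACVECs and at most 1.40 in LSECs.

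In the order of group means of log2(FPKM + 1), MACs or Akt-MACs came first for all 10 genes. The last group was Akt-RACVECs for Acta2, Tagln and Myl9, Sox17-RACVECs for Actg2, Cnn1, Myh11 and Des, and LSECs for Tpm1, Tpm2 and Lmod1. Neighbours in these orders mostly overlapped library by library. The exceptions were Tagln between MACs and RACVECs and Tpm1 between Akt-RACVECs and LSECs.

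**Figure D2:**
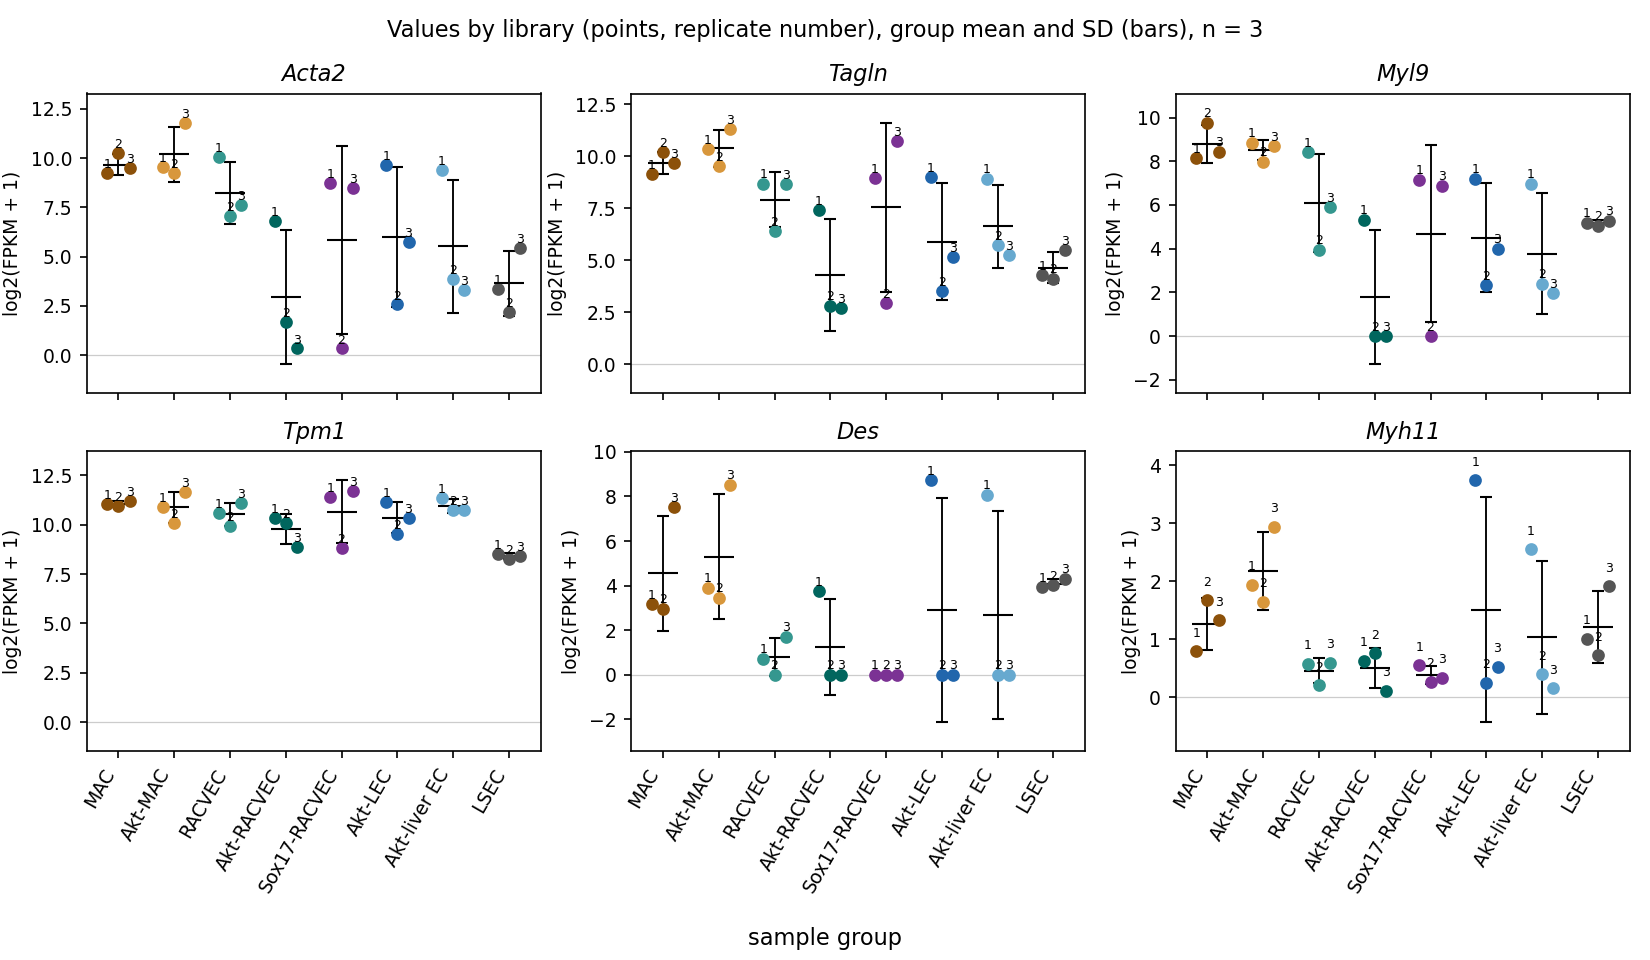
Log2(FPKM + 1) of 6 members in each library (points, labelled with the replicate number), with the group mean and SD (black bars, n = 3). For Acta2 the group means fall from 10.2 in Akt-MACs and 9.68 in MACs to 8.25 in RACVECs and 2.94 in Akt-RACVECs, whereas Tpm1 stands apart from the other groups only in LSECs.

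Converted and unconverted cells that both carried Akt are compared first. The methods do not state the medium of Akt-MACs, so the Ets factors and the medium may not be separable here either. In Akt-RACVECs against Akt-MACs, 4 of the 10 members fell and 0 rose, where 13.4% of all 14964 genes tested were called lower and 6.15% higher. Acta2 fell by 7.26 on the log2 scale (SE 2.18, limma adjusted p = 0.0227). Myl9 fell by 6.74 (SE 1.82, limma adjusted p = 0.0132), and Tagln fell by 6.07 (SE 1.68, limma adjusted p = 0.0152). Cnn1 fell by 4.43 (SE 1.16, limma adjusted p = 0.0111). These are the actin, the light chain and the thin filament proteins whose values are given above, and in each of them all 3 Akt-RACVECs lay below all 3 Akt-MACs. In bulk RNA, fewer cells with the programme and less RNA per cell cannot be told apart.

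The other 6 members had log2 fold changes between -1.11 (Tpm1) and -4.05 (Des) and did not pass. For Actg2 the log2 fold change was -3.12 (SE 1.38, limma adjusted p = 0.107), for Lmod1 -2.81 (SE 1.20, limma adjusted p = 0.0947) and for Myh11 -1.68 (SE 0.73, limma adjusted p = 0.103). In 7 of the 10 members every Akt-RACVEC library was lower than every Akt-MAC library, against 22% of all genes tested. The median log2 fold change of the members was -3.94 and that of all genes -0.09. The calls depended on Akt-RACVEC 2 and 3, the libraries in which Acta2, Myl9, Cnn1 and Lmod1 were at or near 0. Without either of them only Cnn1 was called, where 1454 and 1502 of 14964 genes were called lower. Cnn1 was also called without each of the other 4 libraries. Acta2 lost its call without Akt-MAC 2 or Akt-MAC 3 as well, which left 3 called members, where 1124 and 1760 genes were called lower. Akt-MAC 2 and 3 held macrophage genes, and without both of them 0 members were called by limma, where 4.57% of all genes were called lower and 1.75% higher. The log2 fold change was then -7.08 for Myl9 and -6.59 for Acta2. That fit rests on Akt-MAC 1, which is assumed to vary like the other groups. The paper's own criterion, a log2 ratio of averaged FPKM past 1 with an unadjusted p below 0.05, here with 1 added to each average, gave 2 lower members, Myl9 and Actg2. Under it 692 of 16279 genes were lower and 498 higher, those tested being above 0 in any library compared.

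Converted and unconverted cells were also compared without Akt. In RACVECs against MACs limma called 0 of the 10 members in either direction, where 1.35% of all genes were called lower and 1.36% higher. At an unadjusted p below 0.05 there were also 0 members. The paper's own criterion called 0, where 221 of 15810 genes were lower and 214 higher. All 10 log2 fold changes were below 0, between -0.52 (Tpm1, SE 0.60) and -3.74 (Des, SE 2.21), with a median of -1.63, and 47.7% of all genes were below 0. For Acta2 the log2 fold change was -1.43, with a 95% interval from -6.00 to 3.13, and for Myl9 it was -2.70, from -6.51 to 1.11. These intervals hold both no change and a fall of many fold. Their width comes from the spread pooled over all 8 groups, which for Acta2 was larger in other groups (SD on the log2 scale up to 4.78, in Sox17-RACVECs) than in RACVECs (1.59) or MACs (0.54). In 5 members, Actg2, Tagln, Cnn1, Myh11 and Des, every RACVEC library was below every MAC library, against 10.5% of all genes.

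RACVEC 1 was the highest of the RACVECs for Acta2, Myl9, Actg2, Cnn1, Tagln and Lmod1, and RACVEC 2 was the lowest for all 10 members. The file headers of MAC 2 and RACVEC 1 share a number, and those of MAC 3 and RACVEC 2 share a word, which may mark a common culture. In each of these pairs, 1 library against 1, all 10 members were lower in the RACVEC library. The share of all genes lower in each pair was not computed. The median log2 difference was -0.79 for RACVEC 1 against MAC 2, and the largest was -2.25. For RACVEC 2 against MAC 3 the median was -3.23, and the largest was -7.52, for Des. The header of RACVEC 3 names a day and GFP and shares neither. A fit without MAC 1 and RACVEC 3, which did not use the pairing, called 0 members. At an unadjusted p below 0.05 there were 0 as well, where limma called 0.354% of all genes lower and 0.595% higher.

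**Figure D3:**
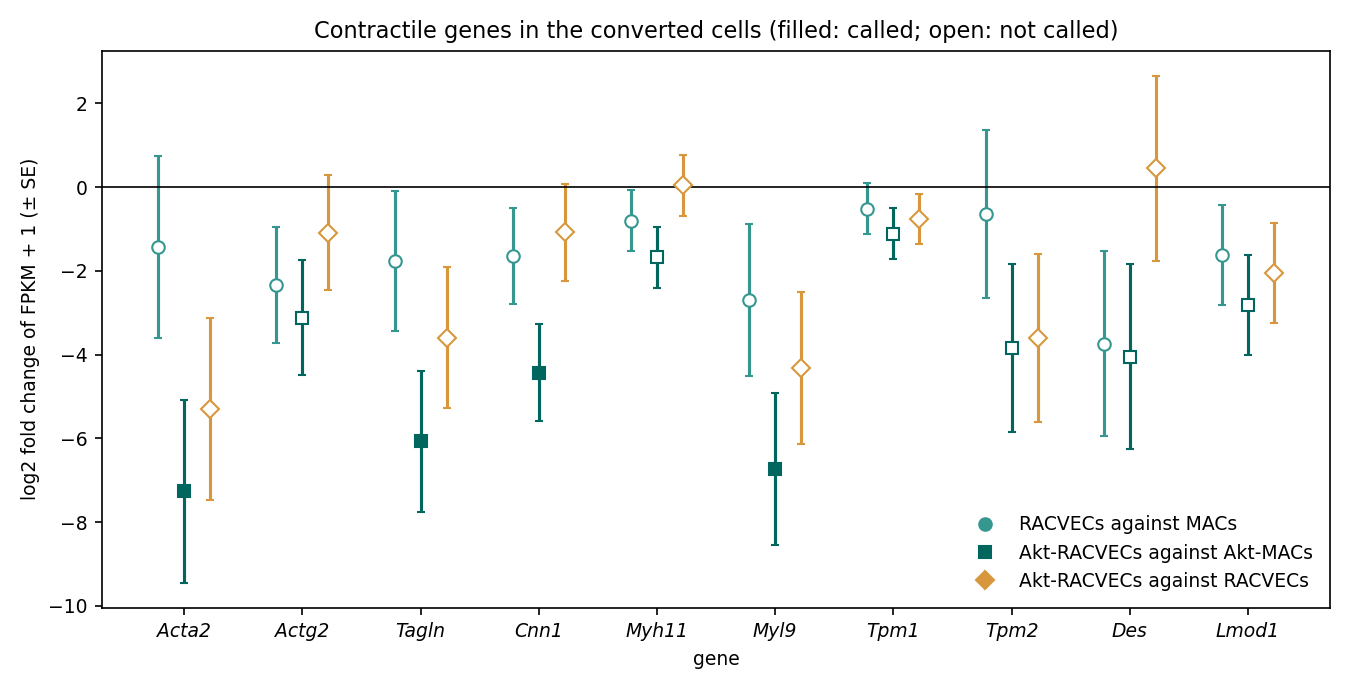
Log2 fold change (± SE, limma) of each member in 3 comparisons of converted cells; filled symbols passed the adjusted p of 0.05 and open symbols did not. The 4 filled symbols are Acta2, Tagln, Cnn1 and Myl9 in Akt-RACVECs against Akt-MACs, and all points of RACVECs against MACs are open and below 0.

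Akt itself was compared in converted and in unconverted cells. In Akt-RACVECs against RACVECs limma called 0 members, where 0.0401% of all genes were called lower and 0.221% higher. The paper's own criterion also called 0, where 273 of 15118 genes were lower and 245 higher. At an unadjusted p below 0.05, 3 members were lower, and the share of all genes at that cutoff was not computed. Acta2 had a log2 fold change of -5.30 (SE 2.18, limma adjusted p = 0.240), Myl9 one of -4.32 (SE 1.82, limma adjusted p = 0.252) and Tagln one of -3.60 (SE 1.68, limma adjusted p = 0.302). For Acta2 the Akt-RACVECs, at 110.1, 2.22 and 0.27 FPKM, were all below the lowest RACVEC, at 132, and it was the only member without overlap, where 9.15% of all genes had none. In Akt-MACs against MACs 0 members were called by limma, where 2.59% of all genes were called higher and 0.214% lower. At an unadjusted p below 0.05 there were 0 members, and the paper's own criterion called 0, where 123 of 16307 genes were higher and 47 lower. The log2 fold changes ranged from -0.86 (Lmod1) to 1.71 (Cnn1), 5 above and 5 below 0. The difference between the Akt effect in RACVECs and that in MACs was tested directly. It was -5.83 for Acta2 (SE 3.08, limma adjusted p = 0.472) and -4.31 for Tagln (SE 2.38, limma adjusted p = 0.492), and limma called 0 members, with 0 at an unadjusted p below 0.05, where 0.0936% of all genes were called lower. The Akt effects in the 2 kinds of cell were thus not shown to differ for any member. Without Akt-MAC 2 and 3, limma called 0 members in Akt-MACs against MACs (0.615% of all genes higher, 0.0401% lower) and 0 in the difference of effects (0.0468% higher, 0.508% lower), with 0 at an unadjusted p below 0.05 in each. The median of the members in Akt-MACs against MACs moved from 0.18 to -0.10, and that of the difference from -1.995 to -1.90.

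Sox17-RACVECs split by library. Acta2, Tagln, Myl9, Tpm1, Tpm2 and Lmod1 were high in Sox17-RACVEC 1 and 3, and in the library labelled Sox17-RACVEC 2 they were 0.27, 6.65, 0, 451, 0 and 0 FPKM. Sox17-RACVEC 1 and 3 kept little Cnn1 (1.60 and 0) and no listed Actg2 or Des beside that Acta2 and Tagln. Against RACVECs, limma called 0 members with all libraries and 0 without the library labelled Sox17-RACVEC 2. In the latter fit 0.0401% of all genes were called higher and 0.02% lower. There 1 member had an unadjusted p below 0.05, a cutoff at which the share of all genes was not computed. With all libraries 0 members had an unadjusted p below 0.05 or passed the paper's own criterion. The median log2 fold change of the members was -1.11 with that library and 0.26 without it, so that its direction rested on that library. With all libraries limma called 0.00668% of all genes lower and 0% higher, and the paper's own criterion called 101 of 14772 lower and 50 higher.

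To place the amniotic cells beside endothelium, MACs were compared with the average over all 6 cultured EC libraries, those of lung and liver. MACs and these ECs also differ in age, in the Akt virus and in the medium, which cannot be told apart from cell type here. Of the 10 members 1 was called higher in MACs, Myl9, with a log2 fold change of 4.65 (SE 1.57, limma adjusted p = 0.0439), where 7.51% of all genes were called higher and 7.3% lower. Next came Lmod1 at 2.92 (SE 1.04, limma adjusted p = 0.0538), Tagln at 3.41 (SE 1.46, limma adjusted p = 0.103) and Acta2 at 3.91 (SE 1.89, limma adjusted p = 0.148). The Myl9 call was lost (0 members called by limma) when any MAC library was left out, and likewise for replicates 2 and 3 of each cultured EC group. In those fits 675 to 1181 of 14964 genes were called higher and 668 to 1081 lower. Without Akt-LEC 1 or Akt-liver EC 1 alone 3 members were called, where 1262 and 1221 genes were called higher and 1048 and 1039 lower. In Akt-LEC 1 and Akt-liver EC 1 Acta2 was within the range of MACs, Tagln, Myl9 and Lmod1 were below it and Actg2, Myh11 and Des above it. There 9 of the 10 members, all but Lmod1, were higher in both than in the other 4 cultured ECs, as were 18.4% of all genes tested. Without these 2 libraries 8 members were called higher in MACs, all but Myh11 and Tpm1, where 9.36% of all genes were and 6.94% were lower. Acta2 was then at 5.80 (SE 1.78, limma adjusted p = 0.0306), and Actg2 at 4.04 (SE 0.76, limma adjusted p = 0.00152). These 2 libraries were set aside after their values were seen, contractile genes being among what set them apart, so the 8 calls are not independent of that choice.

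In Akt-LEC 1 and Akt-liver EC 1 the contractile genes came with genes of other cell types. The 15 pericyte and mural surface genes had a mean log2(FPKM + 1) of 5.20 and 4.95, against 1.61 to 2.65 in the other cultured ECs, with Pdgfrb, the platelet-derived growth factor receptor of mural cells, at 147 and 73.2 against 0 to 2.52. Myod1 and Myog, which drive skeletal muscle, were 143 and 203 in Akt-liver EC 1 and 1.95 and 4.22 in Akt-LEC 1, and were listed at 0 in the other 22 libraries. Epithelial and mesothelial genes summed to 275 and 1960.0 FPKM, against 2.56 to 37.9. Endothelial genes were present as well, with Cdh5 at 1397 and 2591. The part of such cells in the contractile signal was not tested.

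RACVECs differ from the same cultured ECs in cell origin, in age and in the Ets and Akt viruses, which cannot be told apart. This comparison gave 0 called members by limma, and 0 at an unadjusted p below 0.05, where 0.621% of all genes were called higher and 1.26% lower. The log2 fold changes ran from -1.995 (Des) to 2.73 (Tpm2). Without Akt-LEC 1 and Akt-liver EC 1 the median of the members moved from 0.77 to 1.84. Limma then called 0, where 2.21% of all genes were called higher and 2.11% lower. At an unadjusted p below 0.05 there were 5 members, and the share of all genes at that cutoff was not computed. In Akt-LECs against Akt-liver ECs limma also called 0 members, where 0% of all genes were called higher and 0.0134% lower. At an unadjusted p below 0.05 there were 0 members, and the paper's own criterion called 0, where 26 of 15812 genes were higher and 60 lower. Without Akt-LEC 1 and Akt-liver EC 1 limma called 0, with 0 at an unadjusted p below 0.05 and a median of 0.34 in place of 0.47, where 0.0668% of all genes were higher and 0.12% lower. Akt-liver ECs were last set against LSECs, from which they differ in culture, in the Akt virus and in isolation, which cannot be told apart here. Tpm1 rose by a log2 fold change of 2.54 (SE 0.60, limma adjusted p = 0.00334), the 1 call among the 10 members, where 14.1% of all genes were called higher and 12.9% lower. It was also called without Akt-LEC 1 and Akt-liver EC 1, at 2.34 (SE 0.67, limma adjusted p = 0.0145). Tpm2 had a log2 fold change of 3.97 (SE 2.00, limma adjusted p = 0.135). In both tropomyosins every Akt-liver EC library was above every LSEC library, as in 27.7% of all genes. Des had one of -1.40 with all libraries and, without Akt-LEC 1 and Akt-liver EC 1, fell by 4.08 (SE 1.44, limma adjusted p = 0.0407), the other Akt-liver ECs being listed at 0 against 14.2 to 18.7 in LSECs. LSECs also held genes of other liver cells. Their macrophage genes summed to 11570 to 19150 FPKM and their hepatocyte genes to 2775 to 16360, against 0 to 1100 and 32.1 to 68.0 in Akt-liver ECs, and 7 of 7 macrophage, 8 of 8 hepatocyte and 6 of 12 stellate genes were called lower in Akt-liver ECs. The part of these cells in the contractile values was not tested.

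Tpm1 was the only member with many transcripts in the files, 10 of them, Myh11 having 2 and the others 1 each. How Cufflinks divides reads between transcripts that share exons is uncertain, so the division is given as a description. NM_024427 made up 57.1% to 63.5% of the Tpm1 level in MACs, 54.6% to 70.4% in RACVECs and 13.0% to 35.3% in Akt-RACVECs. It was 0% of Tpm1 in the library labelled Sox17-RACVEC 2 and 46.5% and 63.1% in the other Sox17-RACVECs. In LSECs NM_001164252 was the main transcript instead, at 69.3% to 80.9%, against 18.9% to 22.4% in MACs and 33.3% to 55.0% in Akt-RACVECs. Its own level was 213 to 298 FPKM in LSECs and 367 to 472 in MACs. Most of the distance between MACs and LSECs in summed Tpm1 thus lay in NM_024427, which was 1201 to 1339 FPKM in MACs and 0 to 5.07 in LSECs.

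**Figure D4:**
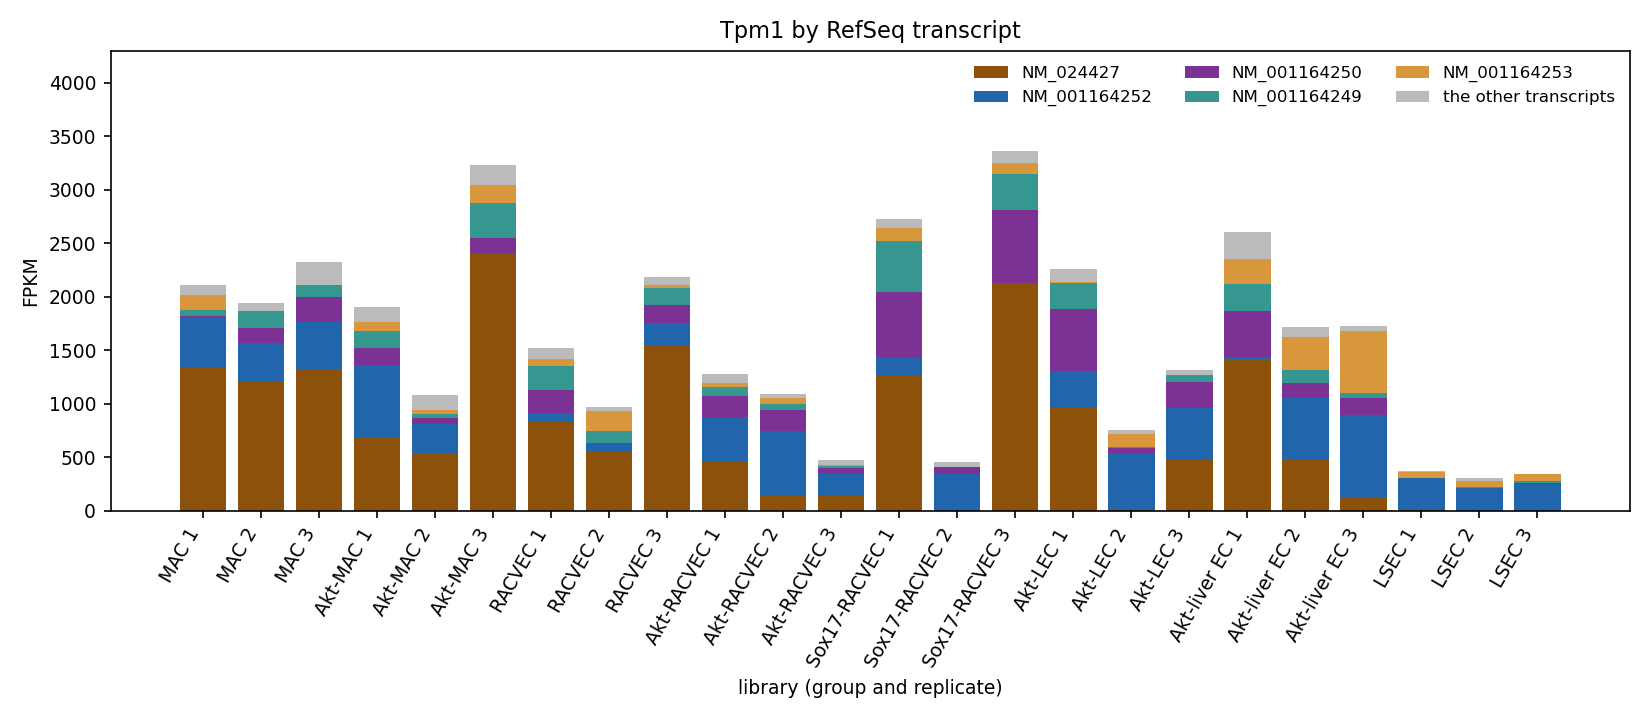
Tpm1 in FPKM by library, stacked by RefSeq transcript; the 5 transcripts with the highest mean have their own colour. The stack of MACs is mostly NM_024427 and that of LSECs mostly NM_001164252, at 69.3% to 80.9%.

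Acta2 and Myl9 are shown with the sequence before their transcription start, since both fell in Akt-RACVECs against Akt-MACs and both hold letters of the CArG box. The sequences are RefSeq promoters (GRCm38.p6), placed on NCBIM37 by an exact match, with CArG boxes, exact or with a G or C at 1 of the 6 core positions, in capitals. The CArG box reads the same way on both strands, and positions count back from the base before the RefSeq start. For Acta2 the stretch is chr19:34329864-34330113 on the minus strand, with boxes at -84 to -75 and -34 to -25, and for Myl9 it is chr2:156600950-156601199 on the plus strand, with boxes at -161 to -152 and -99 to -90, of which the first is exact.
Acta2: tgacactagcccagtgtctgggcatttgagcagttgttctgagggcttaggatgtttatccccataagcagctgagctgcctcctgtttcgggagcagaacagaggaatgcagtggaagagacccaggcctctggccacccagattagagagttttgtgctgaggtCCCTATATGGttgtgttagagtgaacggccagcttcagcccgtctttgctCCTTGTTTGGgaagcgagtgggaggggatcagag
Myl9: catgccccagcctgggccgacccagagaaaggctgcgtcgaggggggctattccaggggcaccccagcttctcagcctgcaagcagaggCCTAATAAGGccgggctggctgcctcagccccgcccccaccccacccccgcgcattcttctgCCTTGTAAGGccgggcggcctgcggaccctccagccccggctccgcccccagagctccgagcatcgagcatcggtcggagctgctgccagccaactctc
Of the 7 members with a RefSeq promoter of 300 bases, these 2 held a box of either kind, as did 9.98% of 32851 promoters. An exact box was in 1 of the 7 and in 1.63% of all promoters. The match is of letters only, and boxes farther from the start were not searched.

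The factors that act on such boxes were measured as well. Srf was between 41.0 and 177 FPKM in every library, Mrtfa between 19.6 and 139 and Mrtfb between 15.7 and 111. Myocd, which encodes myocardin, was listed at 0 in 20 of the 24 libraries, and its highest value was 3.19, in MAC 3. Of 11 tested genes on the list of Srf and myocardin factors 0 were called in RACVECs against MACs. In Akt-RACVECs against Akt-MACs 2 were higher and 1 lower, where 6.15% of all genes were called higher and 13.4% lower. Mrtfb, at 49.4, 58.9 and 111 FPKM in Akt-RACVECs and 30.4, 28.9 and 36.4 in Akt-MACs, rose by a log2 fold change of 1.09 (SE 0.34, limma adjusted p = 0.0280). The others were Tead4, higher by a log2 fold change of 3.49, and Tead1, which fell by 1.47 on the log2 scale, both named after their values were seen. Among the 6 actins, the muscle actins Acta1 and Actc1 were at most 22.1 and 5.74 FPKM outside Akt-LEC 1 and Akt-liver EC 1, where they were 41.2 and 11.8, and 754 and 463. The cytoplasmic actins Actb and Actg1 were 3477 to 10922 and 831 to 4546 FPKM, and Acta2 was the 1 actin called in Akt-RACVECs against Akt-MACs.

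Other genes of smooth muscle and mural cells were taken from lists. Of all genes tested, 1.35% were called lower and 1.36% higher in RACVECs against MACs. In Akt-RACVECs against Akt-MACs these shares were 13.4% and 6.15%. Of 25 tested genes of the smooth muscle cytoskeleton outside the members, 0 were called in RACVECs against MACs, and in Akt-RACVECs against Akt-MACs 3 were lower (Fhl1, Ldb3 and Nexn) and 2 higher (Smtn and Tpm3), named here after their values were seen. The median log2 fold change of that list was -0.53 in the latter comparison, beside -3.94 for the members. Of 15 pericyte and mural surface genes 1 was called lower in RACVECs, Cspg4, which encodes the proteoglycan NG2, at 23.1, 41.8 and 86.5 FPKM in MACs and 3.67, 0.20 and 1.46 in RACVECs (log2 fold change -4.23, SE 0.91, limma adjusted p = 0.0148), and in Akt-RACVECs against Akt-MACs 5 were lower and 1 higher. Of 14 Tgf-beta response genes 0 were called in RACVECs against MACs and 2 were lower in Akt-RACVECs against Akt-MACs.

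The endothelial genes moved the other way. Of 10, 6 were called higher in RACVECs against MACs, where 1.36% of all genes were. In Akt-RACVECs against Akt-MACs 9 were called higher, where 6.15% of all genes were called higher and 13.4% lower. Cdh5, the cadherin of endothelial junctions, rose from 0.82, 1.87 and 1.27 FPKM in MACs to 863, 1531 and 1887 in RACVECs (log2 fold change 9.22, SE 0.48, limma adjusted p = 1.92e-09), and Tie1 rose by 6.97 (SE 0.74, limma adjusted p = 2.20e-05) and Esam by 5.19 (SE 1.09, limma adjusted p = 0.0126). RACVEC libraries thus held Cdh5 beside Acta2 between 132 and 1057 FPKM. The macrophage, hepatocyte, hepatic stellate, striated muscle and epithelial or mesothelial lists had 0 called genes in RACVECs against MACs. In Akt-RACVECs against Akt-MACs 6 of 7 macrophage genes, 4 of 12 stellate genes, 1 of 13 striated muscle genes and 1 of 9 epithelial or mesothelial genes were lower, 1 striated muscle gene was higher and 0 of 8 hepatocyte genes were called.

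**Figure D5:**
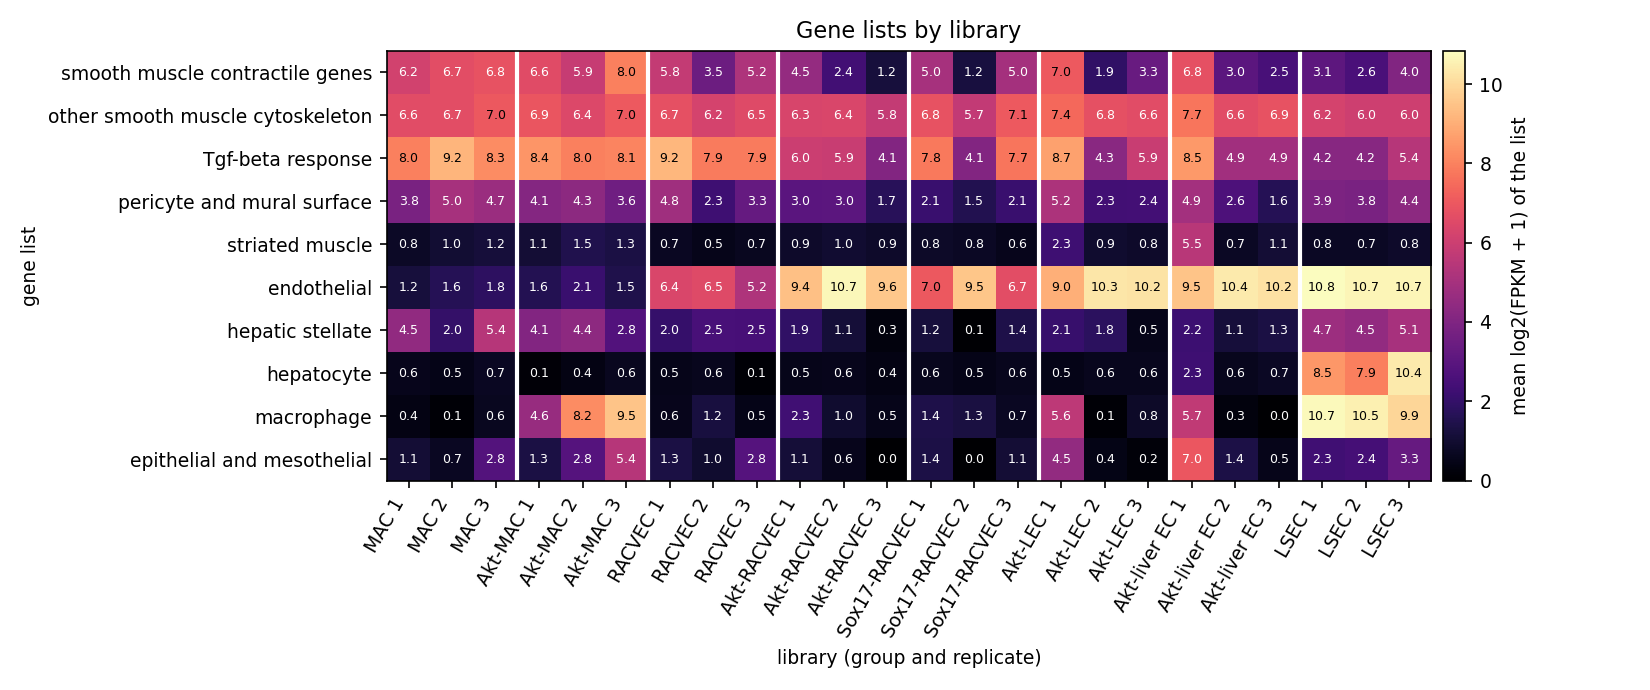
Mean log2(FPKM + 1) of 10 gene lists (rows) in the 24 libraries (columns); the printed number is that mean. Akt-LEC 1 and Akt-liver EC 1 have contractile means of 7.04 and 6.75 beside endothelial means of 9.02 and 9.51, whereas Akt-RACVEC 3 has 1.20 and 9.61.

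Over the 24 libraries the members followed each other to different degrees, which is a description over libraries that share groups and cultures. Pearson's r of log2(FPKM + 1) was 0.962 between Acta2 and Tagln, 0.924 between Acta2 and Myl9 and 0.913 between Acta2 and Lmod1. Actg2 was closest to Cnn1 (r of 0.852), Tpm2 to Tagln (0.858), Tpm1 to Tpm2 (0.836), and Myh11 to Des (0.879). The lowest r was 0.228, between Tpm1 and Des. A profile of the members, the mean of their centred and scaled log2 values, was highest in Akt-MAC 3 at 1.52 and Akt-LEC 1 at 1.18 and lowest in Akt-RACVEC 3 at -1.34 and the library labelled Sox17-RACVEC 2 at -1.33. Among 11693 other genes with a mean of at least 10 FPKM, the 10 closest to this profile were F3 (r of 0.939), Loxl1 (0.917), Ptpn13 (0.917), Col1a1 (0.914), Col1a2 (0.914), Emp2 (0.910), Egfr (0.901), S1pr2 (0.901), Spp1 (0.898) and Spon2 (0.890). F3, which encodes tissue factor, averaged 153 FPKM in MACs, 437 in Akt-MACs, 63.6 in RACVECs, 12.2 in Akt-RACVECs and 2.49 in LSECs. Col1a1 and Col1a2, the chains of type I collagen, averaged 1114 and 1035 in MACs, 853 and 518 in RACVECs and 6.96 and 7.02 in Akt-RACVECs.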

How the data were processed

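RNA of 24 libraries was measured as polyadenylated transcripts with TruSeq kits and paired 51-base reads. Reads had been aligned to mm9 (TopHat), and the FPKM that the authors deposited came from Cufflinks, with its upper-quartile scaling and its sequence bias correction switched on and 1 value for each RefSeq transcript. Versions, the annotation release and whether strand was used are not given in the sources used here. Depth is unknown, so no counting error can be given.

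Of 27583 transcripts, 26934 were joined to a current symbol, and FPKM were summed per symbol to 22282 genes. Libraries summed to 1689486 to 2317294 FPKM. Samples were grouped by title. Groups were compared in 1 limma fit (limma 3.58.1, R 4.3.3) on log2(FPKM + 1) over the 8 groups, with a mean-dependent prior variance and two-sided tests, and with Benjamini-Hochberg adjustment over the 14964 genes averaging 1 FPKM or more. All 10 members passed that filter, Myh11 with the lowest mean, 1.75. Medians of libraries differed from the mean of all by -0.20 to 0.13 on the log2 scale. The script was tested on simulated data. Alternatives were pseudocounts of 0.1 and 10, no filter and a mean of 10, fewer groups in the fit, the replicate number as a block, another scaling, the highest transcript per gene, the paper's own criterion and single libraries left out. Fits without 2 libraries and on the pairs of the headers were chosen after seeing the data.

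The members and gene lists were chosen with earlier results of these data known. Genes outside the members were named where called in RACVECs against MACs (at most 3 of a list in each direction), or as actins, Srf, Myocd, Mrtfa and Mrtfb, or as the 10 closest in pattern. Tead1, Tead4, Fhl1, Ldb3, Nexn, Smtn, Tpm3 and single markers (Lrat, Pdgfrb, Myod1, Myog, Etv2, Erg, Sox17) were named outside that rule, after their values were seen. Marker lists were checked by summed FPKM. The results of 1 further gene list, with 1 gene that the rule would name, are not reported here. Reads of 51 bases could be shared with a paralog in 6 of 1731 windows of Acta2 (with Actg1) and 24 of 6629 of Myh11 (with Myh9), and in 0 windows of the other 8 members. Replicate numbers did not pair libraries between groups: of 28 pairs of groups, 0 had all 3 correlations of deviations above 0.1. Other software was Python 3.11.15, pandas 2.3.3, numpy 2.4.6, scipy 1.17.1 and matplotlib 3.10.9.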

Additional observations from a re-analysis of the deposited data

How the results depend on the processing

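In RACVECs against MACs, Akt-RACVECs against RACVECs, Sox17-RACVECs against RACVECs, Akt-MACs against MACs, RACVECs against cultured ECs, Akt-LECs against Akt-liver ECs and the difference of Akt effects, limma called 0 members under every alternative run. For Akt-RACVECs against Akt-MACs the 4 members called lower became 1 with only the groups compared, 2 under the paper's own criterion, 0 without Akt-MAC 2 and Akt-MAC 3, and 1 to 4 when each library was left out. There the 2003 of 14964 genes called lower became 613 of 14964, 692 of 16279 and 684 of 14964 under the first 3 of these settings. They became 1124 to 1760 when each library was left out. For MACs against cultured ECs the 1 member called higher became 0 with a pseudocount of 0.1, without a filter and with only the groups compared, 2 with a pseudocount of 10, 8 without Akt-LEC 1 and Akt-liver EC 1, and 0 to 3 when each library was left out. It was 2 with the replicate number as a block, which changed no other count of members called, and the numbers do not pair the libraries. In liver ECs, cultured against LSECs, without Akt-LEC 1 and Akt-liver EC 1, 1 member was called lower in place of 0, where 13.3% of all genes were. In that comparison Des changed sign to 0.22 with a pseudocount of 10 and to 2.40 under the paper's own criterion. Des was 266.8, 0 and 0 FPKM in Akt-liver ECs and 14.2 to 18.7 in LSECs. Its average in Akt-liver ECs thus came from Akt-liver EC 1 alone. The paper's own criterion was not run for the comparisons with all cultured ECs or the difference of Akt effects. Of 1630 log2 fold changes of members over all alternatives, 97 had another sign than in the reported fit, 0 of them in RACVECs against MACs or Akt-RACVECs against Akt-MACs. The 3 libraries per group, an unknown depth and several libraries with genes of other cell types limit what can be called.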
